A study of Fundulus heteroclitus with 53 samples.

Results

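The antioxidant and glutathione genes described here were all genes whose symbol in the annotation began with gpx, prdx, txn, gst, nfe2l, srxn, keap1, gcl (c or m), gsr, nqo1, msra, msrb or sod and a digit. This rule found 48 of the 34089 genes counted in the liver of juvenile Atlantic killifish (*Fundulus heteroclitus*), and 46 of the 48 passed the filter on low counts that left 13609 genes for testing. Catalase and glutathione synthetase, which the rule also named, are not analysed here, nor are gene copies known only by a locus number. The fish were laboratory-bred offspring of wild killifish from New Bedford Harbor (NBH), a polychlorinated biphenyl (PCB)-contaminated estuary whose killifish resist dioxin-like toxicants, and from Scorton Creek (SC), a reference site. At 6 months of age, NBH fish and SC fish were held for 6 h in normoxia (control), in mild hypoxia (10% oxygen) or in severe hypoxia (5% oxygen), and liver RNA was sequenced from 5 fish in each of the 6 groups, 1 library per fish. Each population came from a few parents, and the family of each fish was not given, so n counts fish and not families.

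The products of many of these genes remove reactive oxygen species or repair what they oxidise. Others regulate such genes or, taken in by symbol alone, have other roles that are given below. Superoxide dismutases turn superoxide into hydrogen peroxide, and glutathione peroxidases and peroxiredoxins reduce the peroxide with electrons from glutathione or thioredoxin, which are themselves recycled by reductases that use NADPH. In vertebrates many of the genes are driven by the transcription factor NRF2 (encoded by nfe2l2), which KEAP1 holds in the cytosol and marks for degradation until oxidants or electrophiles modify KEAP1. The liver is a main site of glutathione synthesis, and it uses glutathione S-transferases to conjugate xenobiotics.

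The libraries held 4955114 to 23849931 counted reads, and the group medians lay between 7393074 reads (SC mild) and 18906362 reads (SC severe), so depth differed between groups. Every SC severe library (17914396 reads or more) was larger than every SC control library (13247842 or fewer). NBH mild libraries held 14340624 to 19074355 reads, against 7220318 to 16469578 in NBH control. Where depth ran with treatment, a fit with library size as a covariate cannot tell the 2 apart. The 11 hepatocyte marker genes found in the annotation summed to 102946 to 220240 counts per 1000000 (CPM) over the libraries, as liver should hold. These sums were lower in hypoxia. They were 160450 to 183842 CPM in NBH control, 129337 to 158193 in NBH mild and 115095 to 153073 in NBH severe fish. In SC fish they were 140899 to 220240 CPM in control, 108005 to 127321 in mild and 102946 to 117234 in severe hypoxia. Of the 11 genes, 2, 0, 1 and 3 were called higher and 1, 1, 1 and 2 lower in NBH mild, NBH severe, SC mild and SC severe hypoxia. The 7 mesenchymal marker genes found summed to 31.0 to 56.9 CPM in NBH mild fish and 24.1 to 52.6 CPM in NBH severe fish, against 103 to 165 CPM in NBH control fish, and to 24.002 to 48.3 CPM in SC mild fish and 19.5 to 34.0 CPM in SC severe fish, against 109 to 264 CPM in SC control fish. Of the 6 that were tested, 5, 4, 5 and 5 were called lower in NBH mild, NBH severe, SC mild and SC severe hypoxia, and 1 was called higher in NBH mild hypoxia. Blood and muscle markers were called chiefly in SC severe hypoxia. There 3 of 3 tested red blood cell markers (median log2 fold change -2.03), 5 of 6 leukocyte markers (-1.60) and 4 of 4 muscle markers (-3.84) were called lower. In each of the other 3 contrasts at most 1 marker of each of these lists was called, always lower. Their medians were negative there too. In the order NBH mild, NBH severe and SC mild, they were -0.47, -0.74 and -0.82 for red blood cell markers. Leukocyte medians were -0.87, -0.58 and -0.95, and muscle medians were -1.93, -2.13 and -1.79. Of 3 tested endothelial markers, 1 was called lower in each of the 4 contrasts. The 1 tested intestine marker was called lower in NBH mild (-1.24) and SC mild hypoxia (-0.92). No tested exocrine pancreas or bile duct marker was called in these contrasts. In whole liver, fewer cells of a type and less RNA per cell cannot be told apart, and the part of these markers in the results that follow was not tested. NBH severe replicate 5 stood apart. It had the smallest library and the largest mean distance to its group (168, against 126 for the next fish), and it was the highest or the lowest of all 30 fish for 15 of the 46 tested genes. The study left out 1 NBH hypoxia fish without naming it, and its supplement places that fish in the severe group. Without NBH severe replicate 5 the fit called 3342, 2439, 2236 and 4442 genes in NBH mild, NBH severe, SC mild and SC severe hypoxia. With all 30 fish it called 2860, 1900, 1852 and 3909. The counts without NBH severe replicate 5 were the nearer to the study's own, so this was probably the fish left out. All 30 fish were kept here, and calls gained or lost without NBH severe replicate 5 are given with both values.

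Hypoxia raised some of these genes and lowered others in both populations. The methionine sulfoxide reductase gene msra and the thioredoxin-like gene txnl1 rose in all 4 contrasts of hypoxia with control, by 1.73-fold to 2.78-fold and 1.52-fold to 2.05-fold, and gclc, which encodes the catalytic subunit of the rate-limiting enzyme of glutathione synthesis, rose in 3. The mitochondrial thioredoxin gene txn2 fell in 3 contrasts and the mitochondrial superoxide dismutase gene sod2 in both NBH contrasts (and in SC severe hypoxia without NBH severe replicate 5). The glutathione peroxidase gene gpx1a fell in SC fish in severe hypoxia to 0.194 of its control level, and keap1a fell in NBH fish in mild hypoxia to 0.434 of its control level. No gene of the set was called in opposite directions between these contrasts. The share of all genes called in opposite directions was not computed, so this shows no trait of the set.

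A gene was called when its adjusted p (Benjamini-Hochberg, edgeR quasi-likelihood test over all 13609 genes) was under 0.05. In NBH fish, mild hypoxia changed 8 of the 46 genes (17.4%), 5 raised and 3 lowered, beside 21% of all genes tested (11% raised and 10% lowered). Severe hypoxia changed 6 in NBH fish (13%), 3 raised and 3 lowered, beside 14% of all genes (7.45% raised and 6.51% lowered). In SC fish, mild hypoxia changed 7 (15.2%), 5 raised and 2 lowered, beside 13.6% of all genes (7.25% raised and 6.36% lowered), and severe hypoxia changed 10 (21.7%), 6 raised and 4 lowered, beside 28.7% of all genes (15.2% raised and 13.5% lowered). The share of the set was below that of all genes in 3 contrasts and above it in SC mild hypoxia, and it was close to that background in NBH severe and SC mild hypoxia. Of all genes tested, 57.9% were called in none of these 4 contrasts. The counts given below for each gene family stand beside these shares. The set's median log2 fold change was 0.13, 0.04, 0.01 and 0.10 in the order NBH mild, NBH severe, SC mild and SC severe, beside 0.02, 0.04, 0.00 and 0.01 for all genes. The scaling bore on the direction of the calls: with total counts alone as the scale (no TMM), the median of all genes moved up by 0.32, 0.43, 0.27 and 0.37 in the same order and the calls became 14 raised and 2 lowered, 16 and 0, 10 and 1, and 18 and 3. The calls given here are relative to the trimmed mean of M-values (TMM) scale, on which that median stayed near 0, and no called gene of the set reversed its direction under any setting tried.

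**Figure D1:**
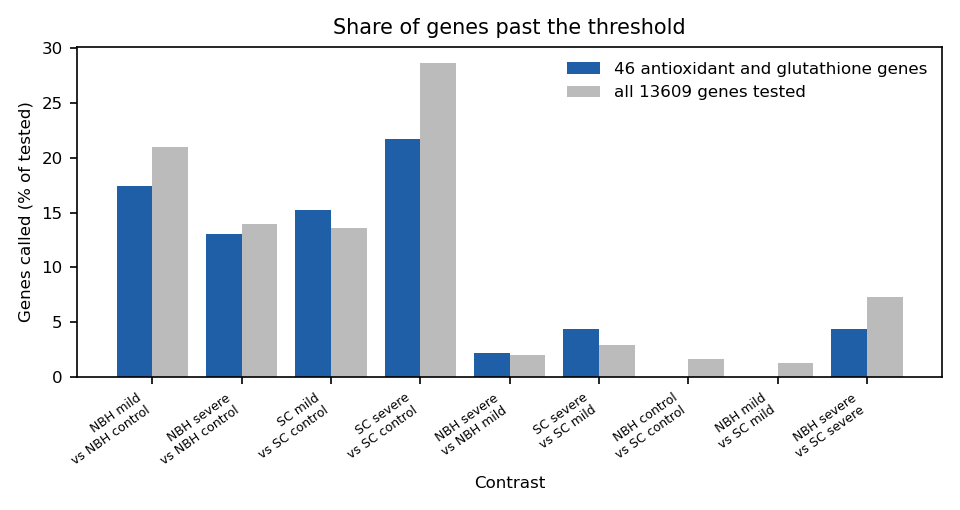
Share of genes called (% of genes tested, vertical axis) in each contrast (horizontal axis), for the 46 antioxidant and glutathione genes (blue) and for all 13609 genes (grey). The blue bar is the lower one in SC severe hypoxia (21.7% against 28.7%) and the higher one in SC mild hypoxia (15.2% against 13.6%).

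**Figure D2:**
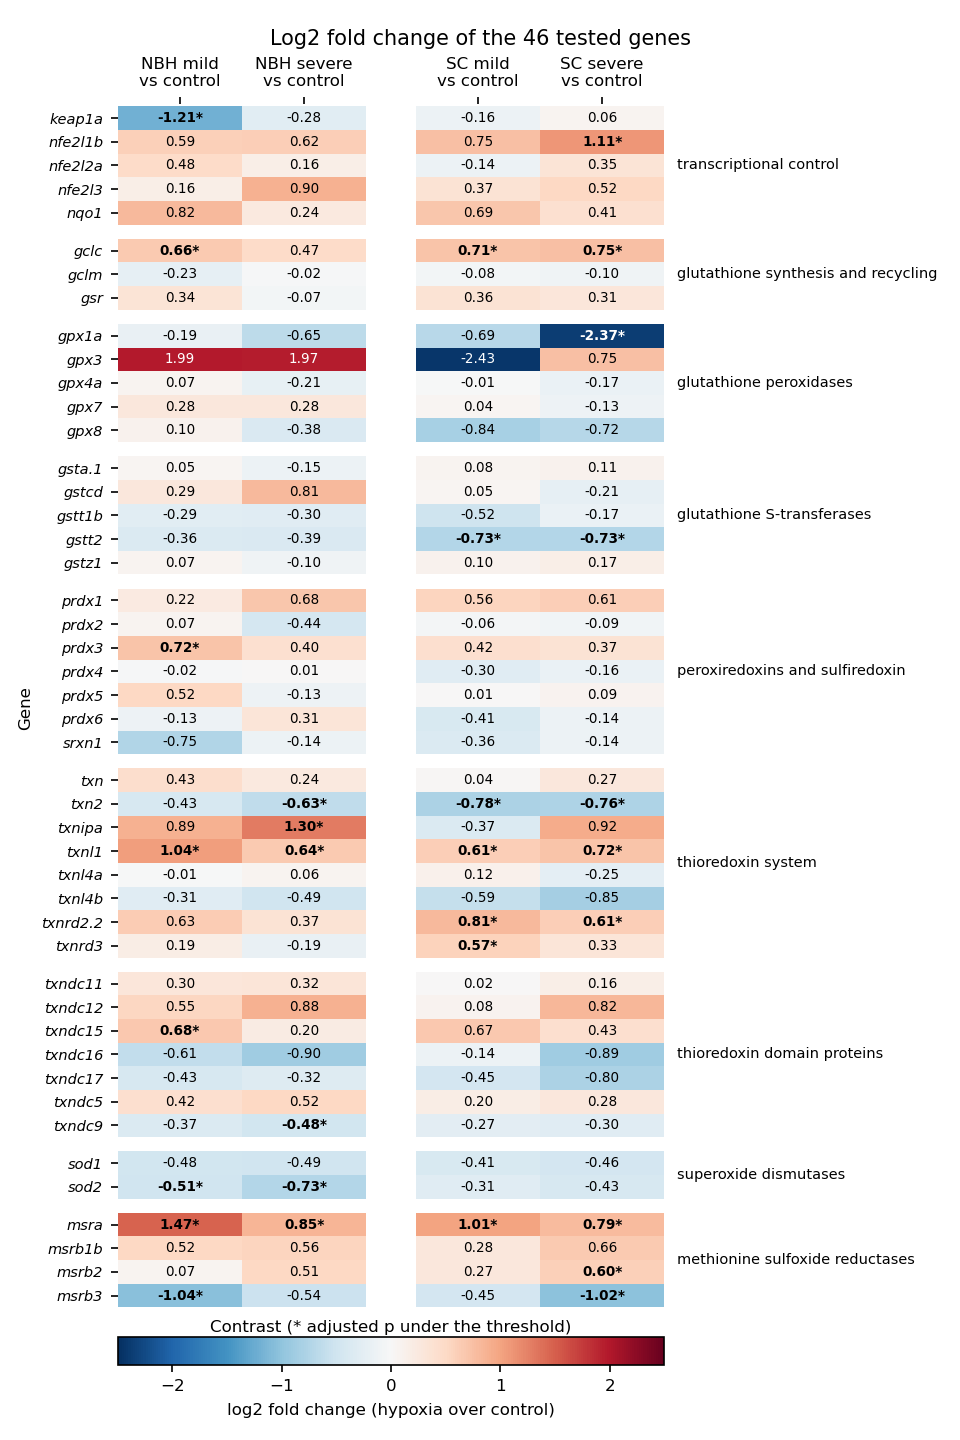
Log2 fold change of hypoxia over control (colour and printed value, SE not shown) for the 46 tested genes (rows, grouped by role) in the 4 contrasts (columns). Asterisks and bold type mark an adjusted p under 0.05. The rows of msra and txnl1 carry an asterisk in all 4 columns.

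Of the 6 genes grouped here under transcriptional control (the nfe2l and keap1 genes and nqo1, which encodes an enzyme), keap1a and nfe2l1b were called. The keap1b gene was too low to test (mean 0.254 CPM, with 0 reads in 7 fish). The keap1b values were 0.584, 0, 0.148, 0.321 and 0.156 CPM in NBH control fish, 0.803, 0.174, 0.581, 0.1997 and 0 CPM in NBH mild fish and 0.345, 0.255, 0.314, 0.551 and 0 CPM in NBH severe fish. They were 0.0827, 0.193, 0, 0.0862 and 0.153 CPM in SC control fish, 0.645, 0.128, 0, 0 and 0 CPM in SC mild fish and 0.460, 0.480, 0.276, 0.340 and 0.341 CPM in SC severe fish. The keap1a gene (chromosome 19, 20317696 to 20341726, MU-UCD_Fhet_4.1 assembly) measured 16.1, 18.7, 14.5, 8.98 and 16.02 CPM in the 5 NBH control fish, 7.11, 5.75, 6.86, 5.69 and 6.83 CPM in mild hypoxia and 9.22, 12.8, 14.03, 14.6 and 10.6 CPM in severe hypoxia. In SC fish it measured 8.93, 11.004, 9.01, 9.48 and 14.2 CPM in controls, 10.5, 6.79, 10.1, 11.3 and 8.28 CPM in mild hypoxia and 13.4, 8.53, 10.8, 12.2 and 9.85 CPM in severe hypoxia. All 5 NBH mild fish lay below all NBH control and NBH severe fish, while the SC groups overlapped. The log2 fold change of NBH mild over control was -1.21 ± 0.19 (SE, n = 5 and 5, adjusted p = 0.000123), and that of NBH severe over mild was 0.93 ± 0.18 (adjusted p = 0.00713, 0.0848 when only the groups compared entered the fit). The mild response of NBH fish minus that of SC fish was -1.05 ± 0.26 and was not called (adjusted p = 0.225), so a population difference in this response was not shown by edgeR.

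The nfe2l1b gene (chromosome 10, 18558473 to 18574271) encodes NRF1, a relative of NRF2 that is anchored in the endoplasmic reticulum and drives proteasome genes in mammals. It measured 6.07, 3.26, 2.82, 3.69 and 3.67 CPM in NBH control fish, 6.08, 7.02, 5.29, 6.44 and 4.83 CPM in NBH mild fish and 8.78, 3.19, 3.63, 5.51 and 9.58 CPM in NBH severe fish. The SC fish measured 3.64, 3.38, 2.499, 4.74 and 2.30 CPM in controls, 5.80, 4.35, 7.43, 4.40 and 6.06 CPM in mild hypoxia and 8.25, 7.43, 6.45, 4.56 and 9.41 CPM in severe hypoxia. SC severe replicate 4 lay just below the highest SC control fish, and the other SC severe fish lay above all SC controls. The rise in SC severe hypoxia (1.11 ± 0.27, adjusted p = 0.00363) was called, and the other 3 log2 fold changes, from 0.59 to 0.75, were not.

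The NRF2 gene nfe2l2a (chromosome 7, 26706690 to 26717127) was not called in any contrast. It measured 22.3, 20.7, 19.6, 25.2 and 20.8 CPM in NBH control fish, 41.1, 25.7, 19.1, 35.5 and 29.6 CPM in NBH mild fish and 24.1, 26.5, 30.7, 27.05 and 12.6 CPM in NBH severe fish. In SC fish the values were 21.3, 19.1, 26.2, 36.3 and 24.5 CPM in controls, 20.6, 22.4, 34.5, 20.6 and 17.8 CPM in mild hypoxia and 36.4, 46.3, 26.8, 27.1 and 25.9 CPM in severe hypoxia. Each hypoxic group overlapped its control, and the log2 fold changes over control ran from -0.14 ± 0.23 in SC mild to 0.48 ± 0.23 in NBH mild fish (adjusted p = 0.14). The quinone reductase gene nqo1, a target of NRF2 in mammals, and nfe2l3 were also not called after hypoxia (log2 fold changes 0.24 to 0.82 and 0.16 to 0.90).

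Among the 3 genes of glutathione synthesis and recycling, only gclc was called. This gene (chromosome 22, 20443629 to 20460504) measured 7.82, 6.53, 10.8, 11.7 and 9.38 CPM in NBH control fish, 13.4, 13.1, 14.9, 17.02 and 14.8 CPM in mild hypoxia and 15.9, 10.8, 9.37, 13.7 and 14.5 CPM in severe hypoxia. In SC fish it measured 10.6, 9.36, 10.4, 11.9 and 8.88 CPM in controls, 21.2, 16.003, 15.004, 17.8 and 13.8 CPM in mild hypoxia and 18.3, 14.6, 13.8, 16.5 and 23.02 CPM in severe hypoxia. Hypoxic and control fish did not overlap in NBH mild, SC mild and SC severe hypoxia, and they overlapped in NBH severe hypoxia. The log2 fold changes were 0.66 ± 0.17 (adjusted p = 0.00837) in NBH mild, 0.71 ± 0.17 (adjusted p = 0.00644) in SC mild and 0.75 ± 0.17 (adjusted p = 0.00189) in SC severe hypoxia. NBH severe hypoxia gave 0.47 ± 0.17 and missed the threshold (adjusted p = 0.0688), and the 2 populations' responses to severe hypoxia differed by -0.28 ± 0.24 (adjusted p = 0.723).

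The modifier subunit gene gclm (chromosome 9, 22149102 to 22159181), whose product binds the catalytic subunit, was not called in any contrast. It measured 7.35, 7.98, 8.16, 7.70 and 7.50 CPM in NBH control fish, 5.45, 5.51, 7.03, 7.39 and 7.66 CPM in NBH mild fish and 7.84, 8.23, 6.81, 6.76 and 8.52 CPM in NBH severe fish. Its SC values were 6.45, 8.11, 5.36, 6.38 and 5.82 CPM in controls, 5.75, 9.602, 5.54, 3.68 and 5.95 CPM in mild hypoxia and 3.81, 5.17, 6.59, 5.48 and 8.93 CPM in severe hypoxia. Hypoxic and control fish overlapped in both populations, with log2 fold changes between -0.23 ± 0.20 and -0.02 ± 0.20 in NBH fish and between -0.10 ± 0.20 and -0.08 ± 0.20 in SC fish.

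The glutathione reductase gene gsr (chromosome 23, 1760575 to 1770133) measured 15.99, 9.07, 7.42, 12.7 and 19.1 CPM in NBH control fish, 13.997, 15.7, 23.5, 15.03 and 13.9 CPM in NBH mild fish and 8.58, 20.6, 11.4, 11.5 and 9.22 CPM in NBH severe fish. For SC fish the values were 18.02, 16.4, 15.4, 18.4 and 11.5 CPM in controls, 21.2, 22.3, 18.9, 21.9 and 18.5 CPM in mild hypoxia and 15.4, 19.2, 20.2, 21.9 and 22.5 CPM in severe hypoxia. All SC mild fish were above all SC control fish, by a narrow margin, and the other hypoxic groups overlapped their controls. No contrast was called, and the log2 fold changes over control ran from -0.07 ± 0.23 in NBH severe to 0.36 ± 0.23 in SC mild fish.

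Of the 6 glutathione peroxidase genes, gpx9 was too low to test (mean 0.103 CPM, 0 reads in 13 fish) and only gpx1a was called. The gpx1a product is the cytosolic selenoenzyme that reduces hydrogen peroxide. The gene (chromosome 20, 19463808 to 19465182) measured 2.80, 5.98, 5.94, 4.97 and 6.33 CPM in NBH control fish, 2.52, 5.86, 4.36, 5.74 and 4.28 CPM in NBH mild fish and 4.49, 0.8294, 3.76, 4.16 and 3.19 CPM in NBH severe fish. SC fish had 7.36, 4.34, 6.60, 10.6 and 14.5 CPM in controls, 8.09, 6.79, 4.87, 2.26 and 4.55 CPM in mild hypoxia and 1.84, 1.74, 1.47, 1.505 and 1.76 CPM in severe hypoxia. The 5 SC severe fish were the tightest group and lay below every fish of the other 5 groups except NBH severe replicate 2. SC severe fish differed from SC control fish by a log2 fold change of -2.37 ± 0.36 (adjusted p = 3.67e-05) and from SC mild fish by -1.68 ± 0.36 (adjusted p = 0.00744), and both calls were kept without any 1 fish of the groups compared and under every setting tried. In NBH fish the severe response was -0.65 ± 0.36 (adjusted p = 0.222). The severe response of NBH fish minus that of SC fish was 1.72 ± 0.50, and this difference was not called (adjusted p = 0.197). Red blood cell markers summed to 4.29 to 11.95 CPM in SC severe fish against 18.1 to 43.6 CPM in SC control fish. Leukocyte markers summed to 4.65 to 21.2 CPM in SC severe fish against 23.7 to 32.9 CPM in SC control fish. In SC severe over mild hypoxia 1 of the 3 red blood cell markers and none of the 6 leukocyte markers was called lower. The part of these markers in the gpx1a result was not tested.

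The remaining peroxidase genes were not called in any contrast. The gpx4a gene, whose product reduces phospholipid hydroperoxides and restrains ferroptosis, had log2 fold changes between -0.21 ± 0.20 and 0.07 ± 0.20, with levels of 2261 to 3445 CPM in NBH mild fish and 1752 to 3014 CPM in NBH severe fish, against 2029 to 4163 CPM in NBH control fish. The secreted peroxidase gene gpx3 was the most variable of the tested genes between fish of a group, with a median coefficient of variation of 121% over the 6 groups. Its levels reached 6.99, 0.591, 0.553, 19.998 and 1.12 CPM in the 5 SC severe fish, against 1.16, 8.30, 6.96, 0.259 and 0.459 CPM in SC control fish, so its log2 fold changes, from -2.43 ± 1.11 to 1.99 ± 1.17, had the widest errors. The genes gpx7 and gpx8, whose products sit in the endoplasmic reticulum, had log2 fold changes from -0.84 to 0.28.

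Glutathione S-transferases join glutathione to electrophiles. Among the 5 genes grouped here by a gst symbol, only the theta-class gene gstt2 was called, and only against SC controls. The gene (chromosome 12, 19944531 to 19951467) measured 68.2, 64.7, 65.5, 45.4 and 74.9 CPM in NBH control fish, 59.3, 46.5, 36.4, 52.4 and 53.8 CPM in NBH mild fish and 56.3, 66.7, 36.1, 35.1 and 49.1 CPM in NBH severe fish. The SC fish had 90.6, 165, 126, 107 and 77.0 CPM in controls, 48.3, 48.3, 83.7, 83.7 and 77.5 CPM in mild hypoxia and 76.7, 50.4, 85.1, 79.3 and 48.7 CPM in severe hypoxia. All 5 NBH control fish were below all 5 SC control fish (log2 difference -0.83 ± 0.23, adjusted p = 0.0578), and the hypoxic SC fish overlapped their controls. Its log2 fold change was -0.73 ± 0.23 in SC mild hypoxia (adjusted p = 0.0312) and -0.73 ± 0.23 in SC severe hypoxia (adjusted p = 0.0172). The mild call was lost without SC control replicate 2 or 3 or SC mild replicate 1 or 2 (adjusted p up to 0.116), and without TMM, with no filter, with only the groups compared or with the replicate block (up to 0.164). The severe call was lost without SC control replicate 2 or SC severe replicate 2 (adjusted p up to 0.0752) and without TMM (0.252). The alpha-class gene gsta.1, the zeta-class gene gstz1, whose product also acts in tyrosine breakdown, gstt1b and gstcd were not called, and their log2 fold changes over control ran from -0.52 (gstt1b, SC mild) to 0.81 (gstcd, NBH severe).

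Peroxiredoxins reduce peroxides with electrons from thioredoxin, and sulfiredoxin repairs those that have been overoxidised. Of these 7 genes only prdx3, the mitochondrial form, was called, and only in NBH mild hypoxia. It measured 46.9, 65.9, 46.4, 61.9 and 58.1 CPM in NBH mild fish and 52.0, 53.2, 59.5, 38.1 and 21.5 CPM in NBH severe fish, against 28.6, 34.1, 28.3, 38.8 and 40.2 CPM in NBH control fish. The NBH mild fish all lay above the NBH control fish, while 3 NBH severe fish lay above the controls and replicate 5 lay below them. The log2 fold change was 0.72 ± 0.21 in NBH mild hypoxia (adjusted p = 0.0175, 0.243 with library size as a covariate) and 0.40 ± 0.21 in NBH severe hypoxia (adjusted p = 0.201). Without NBH severe replicate 5 the severe value was 0.58 ± 0.18 and was called (adjusted p = 0.0299). In SC fish the prdx3 values were 0.42 ± 0.21 in mild and 0.37 ± 0.21 in severe hypoxia, both uncalled. The log2 fold changes of prdx1, prdx2, prdx4, prdx5, prdx6 and srxn1 over control lay between -0.75 (srxn1, NBH mild) and 0.68 (prdx1, NBH severe).

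Thioredoxin is the other main electron carrier of the system. Of its 8 genes, 1 was called in NBH mild and 3 in NBH severe hypoxia, and 4 were called in SC mild hypoxia and 3 in severe. The shares of all genes called were 21%, 14%, 13.6% and 28.7% in the same order. The txnl1 gene (chromosome 8, 4213861 to 4224880) encodes a thioredoxin-like protein that binds the proteasome. It measured 9.22, 8.34, 8.91, 9.78 and 8.52 CPM in NBH control fish, 16.4, 24.5, 13.3, 19.9 and 17.8 CPM in NBH mild fish and 16.3, 13.6, 14.4, 14.3 and 11.2 CPM in NBH severe fish. In SC fish the values were 11.2, 13.3, 11.96, 13.1 and 11.03 CPM in controls, 15.9, 14.9, 21.5, 18.8 and 21.5 CPM in mild hypoxia and 20.4, 20.7, 17.8, 22.1 and 18.6 CPM in severe hypoxia. No hypoxic group overlapped its control. The log2 fold changes were 1.04 ± 0.15 in NBH mild (adjusted p = 4.8e-05), 0.64 ± 0.15 in NBH severe (adjusted p = 0.00454), 0.61 ± 0.14 in SC mild (adjusted p = 0.00562) and 0.72 ± 0.14 in SC severe hypoxia (adjusted p = 0.000579). This gene had the smallest spread within groups of all the tested members, with a median coefficient of variation of 11%, and all 4 calls were kept without any 1 fish of the groups compared and under every setting tried.

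The txn2 gene (chromosome 16, 30685732 to 30692384) ran the other way. It measured 43.2, 38.6, 47.6, 39.5 and 47.2 CPM in NBH control fish, 29.9, 27.6, 41.3, 32.4 and 29.6 CPM in NBH mild fish and 29.98, 32.8, 31.1, 23.8 and 21.5 CPM in NBH severe fish. Its SC values were 76.1, 57.2, 60.0, 41.9 and 43.6 CPM in controls, 30.6, 28.7, 31.8, 31.4 and 39.8 CPM in mild hypoxia and 26.2, 29.8, 32.7, 36.3 and 39.5 CPM in severe hypoxia. All fish of both hypoxic SC groups and of the NBH severe group were below their controls, and 1 NBH mild fish lay within the control range. The log2 fold changes were -0.63 ± 0.16 in NBH severe (adjusted p = 0.0112), -0.78 ± 0.16 in SC mild (adjusted p = 0.00216) and -0.76 ± 0.16 in SC severe hypoxia (adjusted p = 0.00111), and -0.43 ± 0.16 in NBH mild hypoxia (adjusted p = 0.0613). The NBH severe call was lost when total counts alone set the scale (adjusted p = 0.304).

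The mitochondrial thioredoxin reductase gene txnrd2.2, on an unplaced scaffold, was called higher in both SC contrasts, the severe one under only 4 of 10 other settings. It measured 4.90, 5.44, 3.71, 6.58 and 4.53 CPM in NBH control fish, 7.97, 8.88, 5.99, 7.49 and 8.55 CPM in NBH mild fish and 5.97, 6.32, 8.60, 8.01 and 2.84 CPM in NBH severe fish. Its SC values were 2.73, 4.73, 3.03, 4.91 and 2.30 CPM in controls, 6.51, 5.25, 6.76, 6.06 and 6.65 CPM in mild hypoxia and 4.06, 7.02, 5.07, 6.41 and 4.63 CPM in severe hypoxia. The SC mild fish were all above the SC controls, while the SC severe fish overlapped them. The log2 fold change was 0.63 ± 0.23 in NBH mild (adjusted p = 0.0515, and 0.0197 without NBH severe replicate 5), 0.81 ± 0.24 in SC mild (adjusted p = 0.0228) and 0.61 ± 0.23 in SC severe hypoxia (adjusted p = 0.0494). The SC mild call was lost without SC control replicate 1, 3 or 5 (adjusted p up to 0.0680) and the SC severe call without SC control replicate 1, 3 or 5 or SC severe replicate 2, 3 or 4 (adjusted p up to 0.141). The SC severe call was also lost with DESeq2, with either other filter, with only the groups compared, with library size as a covariate and after thinning (adjusted p up to 0.368). A second reductase gene, txnrd3, rose in SC mild hypoxia (0.57 ± 0.15, adjusted p = 0.0111), with 43.3, 38.0, 42.9, 33.6 and 32.6 CPM in SC mild fish against 32.3, 21.6, 23.2, 29.6 and 21.4 CPM in SC control fish.

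The txnipa gene (chromosome 13, 35800864 to 35805405) encodes the thioredoxin-interacting protein, which binds and inhibits thioredoxin and limits glucose uptake in mammals. It measured 43.2, 49.7, 43.8, 47.0 and 69.6 CPM in NBH control fish, 99.3, 86.1, 47.6, 137 and 101 CPM in NBH mild fish and 50.6, 61.4, 46.7, 167 and 302 CPM in NBH severe fish. In SC fish the values were 107, 153, 109, 104 and 106 CPM in controls, 84.3, 110.1, 87.2, 65.6 and 100.4 CPM in mild hypoxia and 219.6, 233, 209, 159 and 272 CPM in severe hypoxia. All 5 NBH control fish were below all 5 SC control fish, all SC severe fish were above all other SC fish, and NBH severe fish were split, with replicates 4 and 5 above the rest. Severe hypoxia over control gave 1.30 ± 0.36 in NBH fish (adjusted p = 0.0164) and 0.92 ± 0.36 in SC fish (adjusted p = 0.0519). Without NBH severe replicate 5 these became 0.69 (adjusted p = 0.103) and 0.92 (adjusted p = 0.0141), so which of the 2 passed depended on that fish. NBH mild hypoxia gave 0.89 ± 0.36 (adjusted p = 0.0732) and was called without that fish (0.90 ± 0.28, adjusted p = 0.0212). Severe over mild hypoxia gave 1.29 ± 0.36 in SC fish (adjusted p = 0.0453), a call lost in 9 of the 10 fits that left out 1 fish of either group, all but that without SC severe replicate 4 (adjusted p up to 0.104). The cytosolic thioredoxin gene txn and the genes txnl4a and txnl4b, whose products belong to the spliceosome, were not called with all 30 fish, with log2 fold changes from -0.85 to 0.43. The lowest of these, txnl4b in SC severe hypoxia (adjusted p = 0.0692), was called without NBH severe replicate 5 (-0.85 ± 0.32, adjusted p = 0.0422).

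**Figure D3:**
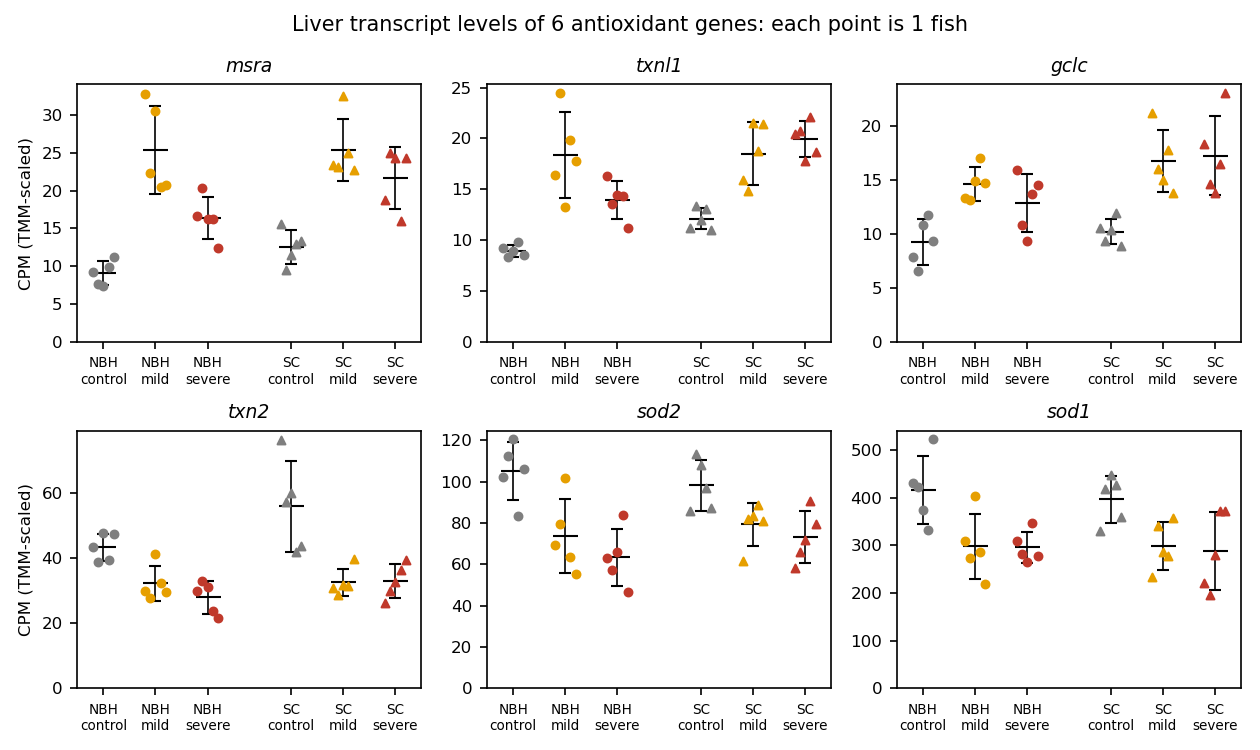
Liver transcript levels (CPM on the TMM scale, vertical axes from 0) of msra, txnl1, gclc, txn2, sod2 and sod1 in the 6 groups (horizontal axes), 1 point per fish. Long horizontal lines are means and bars are SD (n = 5), with NBH as circles, SC as triangles and control, mild and severe hypoxia in grey, yellow and red. Every hypoxic fish was above every control fish of its population for msra and txnl1, and sod1 overlapped throughout.

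Thioredoxin domain proteins (txndc genes) are mostly folding factors, many of them in the endoplasmic reticulum. Of these 7 genes 2 were called with all 30 fish, each in 1 contrast, where 21.2% of all genes tested were called in 1 hypoxia contrast. The txndc15 gene rose in NBH mild hypoxia (0.68 ± 0.23, adjusted p = 0.0361), with 11.1, 12.8, 6.92, 11.6 and 12.6 CPM in NBH mild fish against 5.37, 4.90, 6.83, 8.18 and 8.83 CPM in NBH control fish. The txndc9 gene, whose product assists the chaperonin that folds actin and tubulin, fell in NBH severe hypoxia (-0.48 ± 0.16, adjusted p = 0.043), with 12.3, 14.4, 15.5, 13.7 and 11.5 CPM in NBH severe fish against 26.1, 20.5, 15.1, 16.7 and 15.6 CPM in NBH control fish. The groups overlapped for both genes. The txndc15 call was lost without NBH control replicate 1, 2 or 3 or NBH mild replicate 1, 2, 4 or 5 (adjusted p up to 0.0973) or with library size as a covariate (0.262), and the txndc9 call without NBH control replicate 1 or 2 or NBH severe replicate 1, 2, 4 or 5 (adjusted p up to 0.180). The txndc9 call was also lost without TMM, with no filter, with only the groups compared, with the replicate block and after thinning (adjusted p up to 0.874), and its log2 fold change ran from -0.56 to -0.04 over the fits. The values of txndc5, txndc11, txndc12, txndc16 and txndc17 ran from -0.90 to 0.88 and were not called. Without NBH severe replicate 5, txndc5 (0.67 ± 0.20, adjusted p = 0.0245) and txndc12 (1.05 ± 0.34, adjusted p = 0.0332) were called higher in NBH severe hypoxia. The same fit called txndc12 higher in SC severe hypoxia (0.82 ± 0.31, adjusted p = 0.0458, against 0.0636 with all fish) and txndc15 higher in SC mild hypoxia (0.67 ± 0.21, adjusted p = 0.0254, against 0.052 with all fish).

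Both superoxide dismutase genes were lower in hypoxia than in control on average in every contrast, but only sod2 was called. The sod2 gene (chromosome 15, 10044466 to 10048937), which encodes the manganese enzyme of mitochondria, measured 102, 113, 121, 83.3 and 106 CPM in NBH control fish, 69.1, 79.7, 102, 63.4 and 55.5 CPM in NBH mild fish and 63.0, 57.0, 65.9, 84.0 and 46.7 CPM in NBH severe fish. In SC fish it measured 85.9, 114, 108, 97.1 and 87.1 CPM in controls, 61.6, 81.9, 83.3, 88.8 and 81.1 CPM in mild hypoxia and 58.2, 65.8, 71.8, 90.7 and 79.4 CPM in severe hypoxia. Every hypoxic group overlapped its control by at least 1 fish. The log2 fold change was -0.73 ± 0.17 in NBH severe (adjusted p = 0.00549) and -0.51 ± 0.17 in NBH mild hypoxia (adjusted p = 0.033), against -0.43 ± 0.17 in SC severe (adjusted p = 0.0566, and 0.0421 without NBH severe replicate 5) and -0.31 ± 0.17 in SC mild hypoxia (adjusted p = 0.219). The NBH responses minus the SC responses were -0.30 ± 0.24 in severe and -0.20 ± 0.24 in mild hypoxia, and neither was called (adjusted p = 0.692 and 0.907). The NBH mild call was lost without NBH control replicate 1, 2, 3 or 5 or NBH mild replicate 1, 4 or 5 (adjusted p up to 0.109), and both NBH calls were lost when total counts alone set the scale (adjusted p = 0.361 in mild and 0.170 in severe hypoxia).

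The sod1 gene (chromosome 11, 19273039 to 19276256) encodes the copper and zinc enzyme of the cytosol. It measured 430.2, 423, 375, 331 and 524 CPM in NBH control fish, 309, 273, 403, 285 and 218 CPM in NBH mild fish and 309.9, 282, 265, 346 and 277 CPM in NBH severe fish. Levels in SC fish were 331, 418, 447, 427 and 359 CPM in controls, 233, 341, 286, 277 and 358 CPM in mild hypoxia and 220.3, 196, 281, 371 and 372 CPM in severe hypoxia. Each hypoxic group overlapped its control. The 4 log2 fold changes were -0.48 ± 0.18, -0.49 ± 0.18, -0.41 ± 0.18 and -0.46 ± 0.18 in the order NBH mild, NBH severe, SC mild and SC severe, and none passed the threshold (adjusted p = 0.0576, 0.0681, 0.133 and 0.0564).

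Methionine sulfoxide reductases repair oxidised methionine in proteins with electrons from thioredoxin, MSRA acting on one stereoisomer of the sulfoxide and the MSRB enzymes on the other. Of the 4 genes, 3 were called in at least 1 hypoxia contrast and 1 in none, where 57.9% of all genes tested were called in none. The msra gene (chromosome 15, 773213 to 823306) measured 9.22, 7.61, 7.42, 9.95 and 11.2 CPM in NBH control fish, 32.8, 22.3, 30.5, 20.5 and 20.7 CPM in NBH mild fish and 16.6, 20.3, 16.3, 16.2 and 12.4 CPM in NBH severe fish. In SC fish it measured 15.5, 9.46, 11.4, 12.9 and 13.3 CPM in controls, 23.4, 23.2, 32.4, 24.95 and 22.7 CPM in mild hypoxia and 18.8, 24.9, 24.3, 15.97 and 24.3 CPM in severe hypoxia. Every hypoxic fish was above every control fish of its own population. The log2 fold changes were 1.47 ± 0.18 in NBH mild (adjusted p = 1.07e-05), 0.85 ± 0.18 in NBH severe (adjusted p = 0.00262), 1.01 ± 0.18 in SC mild (adjusted p = 0.00046) and 0.79 ± 0.18 in SC severe hypoxia (adjusted p = 0.00152). All NBH severe fish were below all NBH mild fish (-0.63 ± 0.17), a difference that missed the threshold (adjusted p = 0.0552). The 4 calls were kept without any 1 fish of the groups compared and under every setting tried.

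The msrb3 gene (chromosome 17, 460424 to 491530), whose product works in the endoplasmic reticulum, fell in NBH mild and SC severe hypoxia. It measured 32.1, 33.2, 32.9, 32.7 and 24.2 CPM in NBH control fish, 10.96, 14.8, 20.5, 12.4 and 16.7 CPM in NBH mild fish and 15.4, 11.6, 16.3, 22.1 and 42.4 CPM in NBH severe fish. Its SC levels were 23.6, 21.2, 24.5, 19.5 and 28.3 CPM in controls, 16.5, 25.1, 14.6, 13.8 and 15.4 CPM in mild hypoxia and 10.1, 10.05, 11.01, 12.4 and 13.95 CPM in severe hypoxia. The NBH mild and SC severe fish lay below all their controls, and NBH severe replicate 5 was the highest of the 30 fish. The log2 fold changes were -1.04 ± 0.24 in NBH mild (adjusted p = 0.00384, 0.0726 with library size as a covariate) and -1.02 ± 0.24 in SC severe hypoxia (adjusted p = 0.00269). NBH severe hypoxia gave -0.54 ± 0.24 (adjusted p = 0.131) and, without replicate 5, -0.92 ± 0.20 (adjusted p = 0.00344). The mesenchymal markers fell in the same hypoxic groups, as given above, and their part in this result was not tested.

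The mitochondrial msrb2 gene rose in SC severe hypoxia (0.60 ± 0.21, adjusted p = 0.0338), with 28.2, 36.3, 35.8, 34.6 and 37.3 CPM in SC severe fish against 28.02, 19.5, 25.5, 20.4 and 20.2 CPM in SC control fish and no overlap. The call was lost without SC control replicate 2, 4 or 5 or SC severe replicate 2, 3, 4 or 5 (adjusted p up to 0.0777) or with library size as a covariate (0.277). In NBH severe hypoxia msrb2 gave 0.51 ± 0.21 with all fish and 0.64 ± 0.21 without NBH severe replicate 5 (adjusted p = 0.0358). The gene msrb1b was not called, with log2 fold changes of 0.28 to 0.66.

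**Figure D4:**
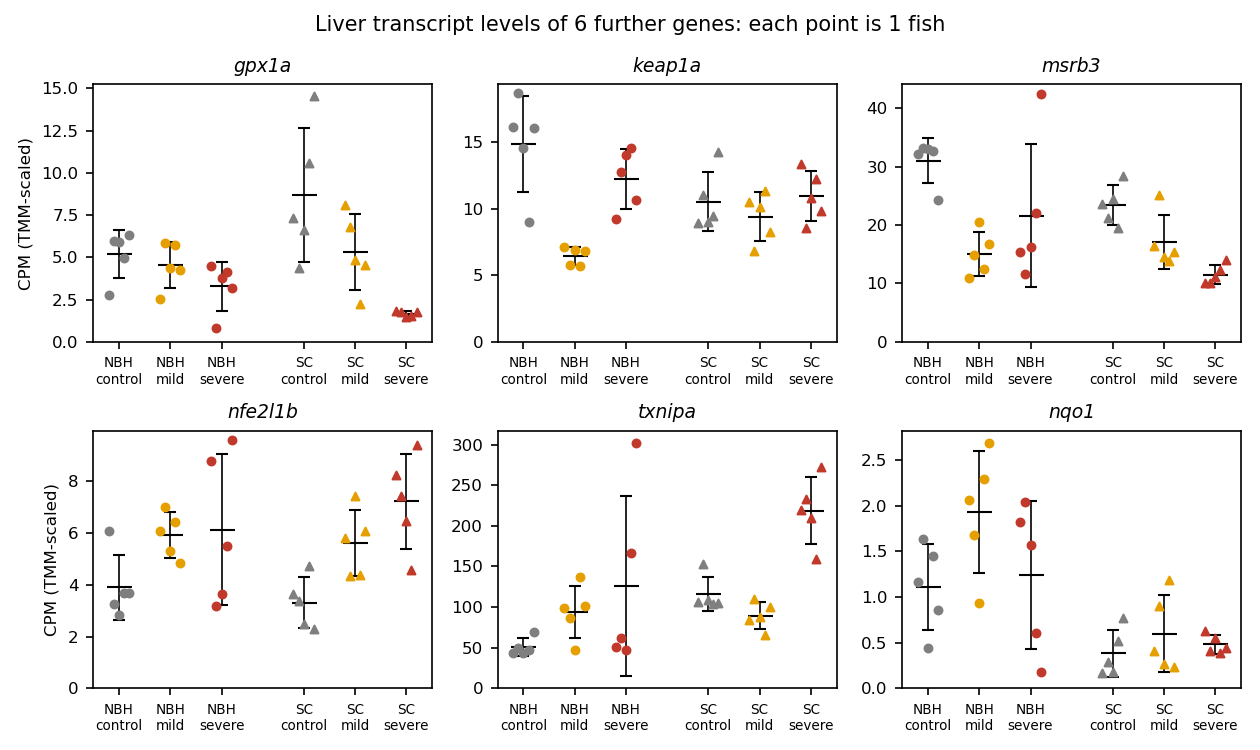
Liver transcript levels (CPM on the TMM scale, vertical axes from 0) of gpx1a, keap1a, msrb3, nfe2l1b, txnipa and nqo1 in the 6 groups (horizontal axes), 1 point per fish, with means and SD (n = 5) drawn as long lines and bars, NBH as circles and SC as triangles. SC severe fish had 1.47 to 1.84 CPM of gpx1a, NBH mild fish had 5.69 to 7.11 CPM of keap1a, and NBH severe replicate 5 was the highest point for msrb3 and txnipa.

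Genes of mitochondrial enzymes were called in both directions. Of the 6 tested genes of this compartment (prdx3, prdx5, txn2, txnrd2.2, sod2 and msrb2), 1 was raised and 1 lowered in NBH mild, 2 were lowered in NBH severe, 1 was raised and 1 lowered in SC mild hypoxia and 2 were raised and 1 lowered in SC severe hypoxia. Of all genes, 11%, 7.45%, 7.25% and 15.2% were raised and 10%, 6.51%, 6.36% and 13.5% lowered in the same order. Calls in both directions were therefore also seen over all genes. The txn2 gene fell in SC severe hypoxia (-0.76) while txnrd2.2 (0.61) and msrb2 (0.60) rose in the same fish. Over the 4 contrasts, 29 of the 46 genes were called in none, 9 in 1, 4 in 2, 2 in 3 and 2 in all 4, beside 57.9%, 21.2%, 10.6%, 6.25% and 4.05% of all genes tested. The 4 contrasts share controls in pairs and are not independent of each other.

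Between the 2 hypoxia levels few of the genes differed. Severe against mild hypoxia changed 1 gene in NBH fish (2.17%, keap1a) beside 1.95% of all genes, and 2 genes in SC fish (4.35%, txnipa raised and gpx1a lowered) beside 2.9% of all genes.

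In direct comparisons of the populations, the main edgeR fit called no gene of the set in control fish (1.62% of all genes were) or in mild hypoxia (1.25%). Some of the alternative edgeR fits did call genes of the set there, as given in the closing section. At an unadjusted p under 0.05 there were 12 genes in control and 5 in mild hypoxia, and DESeq2 called 2 and 1. The shares of all genes at that cutoff and with DESeq2 are not given here, so these counts show no trait of the set. In severe hypoxia 2 genes were called (4.35%), beside 7.32% of all genes. They were msrb3, higher in NBH fish (0.89 ± 0.24, adjusted p = 0.0243), and txnl1, lower in NBH fish (-0.51 ± 0.14, adjusted p = 0.0266). Both were lost without NBH severe replicate 5 (adjusted p = 0.116 for msrb3 and 0.0581 for txnl1). Without SC severe replicate 1 or 2 neither was called, and msrb3 was also lost without SC severe replicate 3 and txnl1 without SC severe replicate 4. The values of txnl1 did not overlap, with 11.2 to 16.3 CPM in NBH severe fish against 17.8 to 22.1 CPM in SC severe fish.

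Among the genes not called between populations, nqo1, srxn1 and txnipa are given with their values, a choice made after the values were seen. The nqo1 gene (chromosome 4, 1026408 to 1031045) measured 1.17, 1.63, 0.445, 1.44 and 0.860 CPM in NBH control fish against 0.165, 0.290, 0.179, 0.517 and 0.766 CPM in SC control fish. In mild hypoxia it measured 2.07, 1.68, 0.930, 2.30 and 2.69 CPM in NBH fish against 0.410, 0.896, 0.270, 1.19 and 0.233 CPM in SC fish, and in severe hypoxia 1.82, 2.04, 1.57, 0.601 and 0.177 CPM in NBH fish against 0.628, 0.406, 0.553, 0.388 and 0.439 CPM in SC fish. The NBH means were higher at each oxygen level, and the ranges overlapped. The log2 differences were 1.57 ± 0.54, 1.69 ± 0.49 and 1.40 ± 0.47 in control, mild and severe hypoxia (adjusted p = 0.144, 0.0777 and 0.0612). Without NBH severe replicate 5 they were called in mild (1.69 ± 0.44, adjusted p = 0.0429) and in severe hypoxia (1.62 ± 0.43, adjusted p = 0.0249).

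The sulfiredoxin gene srxn1 measured 0.934, 0.725, 1.04, 0.802 and 1.25 CPM in NBH control fish against 0.0827, 0.676, 0.357, 0.345 and 0.153 CPM in SC control fish, with no overlap. Its log2 differences were 1.53 ± 0.57, 1.14 ± 0.58 and 1.54 ± 0.52 in control, mild and severe hypoxia and were not called (adjusted p = 0.192, 0.368 and 0.0677). At these levels a fish had few reads of either gene, which limits the precision. For txnipa the control fish differed by -1.19 ± 0.36 (NBH over SC, adjusted p = 0.0855), a value called without NBH severe replicate 5 (adjusted p = 0.0241). In severe hypoxia the txnipa difference was -0.80 ± 0.35 with all fish (adjusted p = 0.158) and -1.43 ± 0.31 without replicate 5 (adjusted p = 0.00666). In the control comparison that fish is in neither group and bears on the test through the spread and the filter shared by all groups.

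The population by hypoxia interaction, which tests the difference in response itself, called no gene of the set in mild hypoxia (0% of all genes) or in severe hypoxia (0.00735% of all genes, 1 gene) by edgeR. At an unadjusted p under 0.05 there were 4 genes in mild and 2 in severe hypoxia, and DESeq2 called 1 and 0, again without the shares of all genes. By edgeR, a gene called in 1 population and not in the other, such as keap1a, gpx1a or gstt2, was therefore not shown to respond differently.

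Genes of the same pathway outside the rule were read from a fixed list of which 54 were found and 45 tested. Of these, mild hypoxia raised 7 and lowered 4 in NBH fish and raised 7 and lowered 5 in SC fish. Severe hypoxia raised 5 and lowered 2 in NBH fish and raised 11 and lowered 8 in SC fish. The list's median log2 fold change was 0.12 in NBH mild, -0.07 in NBH severe and -0.03 in SC mild hypoxia, and it was 0.08 in SC severe hypoxia. The calls came to 11, 7, 12 and 19 of the 45 genes in NBH mild, NBH severe, SC mild and SC severe hypoxia, beside 21%, 14%, 13.6% and 28.7% of all genes. All calls of this list come from the main edgeR fit and were not tried under the other settings or without single fish. Some lay close to the threshold, such as ggt5b in NBH mild (adjusted p = 0.0470), park7 in SC mild (0.0465) and pgd in NBH severe hypoxia (0.0456).

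Genes of enzymes that supply NADPH, which the reductases use, were called in both directions. The pgd gene, which encodes a phosphogluconate dehydrogenase, rose by 0.58 ± 0.20, 0.60 ± 0.20 and 0.86 ± 0.20 on the log2 scale in NBH mild, NBH severe and SC severe hypoxia. The mitochondrial NADP-dependent isocitrate dehydrogenase gene idh2 was lowered, with log2 fold changes of -0.85 ± 0.27 in NBH severe, -0.92 ± 0.27 in SC mild hypoxia, and -1.27 ± 0.26 in SC severe hypoxia. Of the 4 glutaredoxin genes, glrx5, which acts in iron-sulfur cluster assembly, rose in all 4 contrasts (0.32 ± 0.12 to 0.60 ± 0.12), and glrx, the cytosolic form, was called lower in SC fish (-0.73 ± 0.22 in mild and -0.70 ± 0.21 in severe hypoxia).

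Of 10 tested genes of glutathione breakdown and export, 2 were raised and 1 lowered in NBH mild, none was called in NBH severe, 4 were raised in SC mild and 3 were raised and 1 lowered in SC severe hypoxia, beside the same shares of all genes. The chac2 gene, whose product degrades glutathione in the cytosol, rose in NBH mild (1.40 ± 0.34), SC mild (1.21 ± 0.33) and SC severe hypoxia (1.06 ± 0.32), and the exporter gene abcc1 rose in mild hypoxia in NBH fish (1.59 ± 0.55) and SC fish (1.74 ± 0.54). The ggt5b gene fell in NBH mild (-1.00019 ± 0.36) and SC severe hypoxia (-1.10 ± 0.36). Levels of chac2, abcc1 and ggt5b were low, with group means of 1.13 to 3.03 CPM for chac2, 0.387 to 1.39 CPM for abcc1 and 0.911 to 2.15 CPM for ggt5b. The other called genes of this part, raised in both SC contrasts, had higher levels. Among NRF2 partners and targets, 7 of 13 were tested, and 1, 1, 0 and 2 of them were raised and none lowered in NBH mild, NBH severe, SC mild and SC severe hypoxia. Of all genes, 11%, 7.45%, 7.25% and 15.2% were raised and 10%, 6.51%, 6.36% and 13.5% lowered in that order. The small Maf gene maff, whose product pairs with NRF2, rose in NBH mild (1.02 ± 0.34), NBH severe (1.48 ± 0.34) and SC severe hypoxia (0.99 ± 0.33). The sqstm1 gene, whose product binds KEAP1, rose in SC severe hypoxia (1.02 ± 0.24).

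Of 8 tested selenium genes, 1 was raised and 1 lowered in NBH mild, 1 was raised in NBH severe, and 2 were raised and 2 lowered in each of SC mild and SC severe hypoxia. The shares of all genes called were 21%, 14%, 13.6% and 28.7% in the same order. The selenoprotein gene selenos, of the endoplasmic reticulum, rose in all 4 contrasts (0.51 ± 0.16 to 0.64 ± 0.16). The eefsec gene, whose product is the elongation factor for selenocysteine, rose in both SC contrasts (0.70 ± 0.23 in mild and 0.63 ± 0.22 in severe hypoxia). The sephs1 gene, a relative of the selenophosphate synthetase genes, fell in NBH mild (-0.82 ± 0.19), SC mild (-0.71 ± 0.19) and SC severe hypoxia (-0.56 ± 0.19). The selenoh gene fell in SC mild (-2.53 ± 0.57) and selenom in SC severe hypoxia (-1.74 ± 0.53). Both had low levels. Mean selenoh was 2.63 CPM in SC control and 0.399 CPM in SC mild fish, and mean selenom was 1.24 CPM in SC control and 0.364 CPM in SC severe fish. The last part of the fixed list held 7 other tested redox genes. Of these, 2 were lowered in NBH mild, 1 in NBH severe and 1 in SC mild hypoxia. In SC severe hypoxia 1 was raised and 2 were lowered, beside the same shares of all genes. The park7 gene of this part, which encodes the oxidant-sensing protein DJ-1, fell in all 4 contrasts (-0.57 ± 0.19 to -0.97 ± 0.19).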

How the data were processed

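The authors deposited raw read counts per gene symbol, 1 table for each of 30 liver libraries. Per the study's methods, stranded 50 bp single-end reads were trimmed with Trimmomatic, aligned with STAR to the *F. heteroclitus* genome and assigned to genes with HTSeq-count, and the strand setting of the counting is not given in the sources used here. Of the tested genes, gpx8, gstcd and txndc16 overlap another annotated gene, so reads of the 2 may be shared. DNA methylation samples of the series are not analysed here.

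Groups came from the population and treatment labels. Genes were filtered (filterByExpr over 6 groups), scaled by TMM and tested with edgeR 4.0.16 (glmQLFTest, two-sided, legacy = TRUE) in R 4.3.3, with 1 mean per group over all 30 fish. CPM are counts scaled to 1000000 per TMM-scaled library, and SE is the log2 fold change divided by the root of F. The p-values measure the spread between fish. Alternatives were DESeq2 1.42.0, no TMM, other filters, only the groups compared, library size as a covariate, thinning to the smallest library, a replicate block, 29 fish, and each fish left out. Scripts were tested on simulated counts. Positions came from RefSeq.

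The genes, lists and tests were chosen with earlier results of these data known. Values in every fish are given for genes called in at least 2 hypoxia contrasts and averaging at least 10 CPM, the 3 largest changes in each hypoxia contrast among called genes averaging at least 1 CPM, genes called between populations, between hypoxia levels or in the interaction, and the nfe2l2, keap1, gcl, gsr and sod genes. The prdx3, txnrd3, txndc15, txndc9, msrb2, gpx3, nqo1 and srxn1 values were added after they were seen. The values of 1 gene of the wider pathway list are not reported here.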

Additional observations from a re-analysis of the deposited data

Results flagged for a closer look

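Over the 17 genes given in full, 102 groups of 5 fish were examined. In 12 of them 1 fish lay far from the other 4 by Dixon's test at the 95% level. For independent groups of normally distributed values this level flags about 1 in 20 groups, or 5.1 of 102. The CPM were not transformed and the same fish recur from gene to gene, so the 12 cannot be judged against that rate. The lone fish was the highest of its group for gsr in NBH mild replicate 3 (23.5 CPM) and NBH severe replicate 2 (20.6 CPM), for msra and nfe2l2a in SC mild replicate 3 (32.4 and 34.5 CPM), for msrb3 in SC mild replicate 2 (25.1 CPM) and for txn2 in SC mild replicate 5 (39.8 CPM). It was also the highest for keap1b in SC mild replicate 1 (0.645 CPM), for nfe2l1b in NBH control replicate 1 (6.07 CPM), and for txnipa in NBH control replicate 5 (69.6 CPM) and SC control replicate 2 (153 CPM). The lone fish was the lowest for msrb3 in NBH control replicate 5 (24.2 CPM) and for sod2 in SC mild replicate 1 (61.6 CPM). None of the 12 was NBH severe replicate 5.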

How the results depend on the processing

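Of the 36 calls (gene and contrast), 18 were kept under all 10 alternative settings and in all fits without 1 fish, 32 were kept without NBH severe replicate 5, and none reversed. Counts of the set's genes called kept within 1.5 times of the main count except as follows. Without TMM, 16 were called in NBH mild, 16 in NBH severe and 11 in SC mild hypoxia, 21 in the severe hypoxia of SC fish, and 3 and 4 between populations in control and severe hypoxia. DESeq2 called 2 between NBH severe and mild, 2, 1 and 6 between populations in control, mild and severe hypoxia, and 1 in the mild interaction. The newer quasi-likelihood setting (legacy = FALSE) called 2 between NBH severe and mild and 1, 1 and 6 between populations in control, mild and severe hypoxia. With only the groups compared, the fit called 0 between NBH severe and mild and 1 and 0 between populations in control and severe hypoxia. Without NBH severe replicate 5 the fit of the other 29 fish called 1 and 1 between populations in control and mild hypoxia, beside 2.15% and 1.93% of all genes. Thinning left 1 between SC severe and mild, and library size as a covariate left 0 between populations in severe hypoxia. For the other alternative fits the shares of all genes called are not given here, so their counts show no trait of the set. The cause of these shifts was not tested.

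Leaving out each fish of the 2 groups compared in turn gave 6 to 13 calls in NBH mild, 5 to 9 in NBH severe, 5 to 9 in SC mild, 7 to 12 in SC severe, 1 to 2 between hypoxia levels in either population, and 0 to 1, 0 to 1 and 0 to 5 between populations in control, mild and severe hypoxia. Since all groups share 1 fit, leaving out NBH severe replicate 5 also moved contrasts it is not part of. The calls became 10 in NBH mild and, for SC fish, 8 in the mild and 14 in the severe contrast. The shares of all genes called rose too, to 24%, 16.1% and 31.9% in the same order. With all 30 fish they were 21%, 13.6% and 28.7%, so the added calls show no trait of the set. The labels give all groups the same replicate numbers. Of 75 pairs of same-numbered fish only 4 had deviations correlated above 0.1 (range over the pairs -0.24 to 0.22), so little pairing by number was seen. Fish of different numbers were not compared in this way, so a pairing is not excluded. A replicate block gave 9, 5, 6 and 12 calls in NBH mild, NBH severe, SC mild and SC severe hypoxia, 1 and 2 between hypoxia levels in NBH and SC fish, and 0, 0 and 2 between populations, with 0 in both interactions. Genes under about 1 CPM (nqo1, srxn1, gpx8) rest on few reads per fish, as do abcc1, selenoh and selenom of the wider list in the groups where they were that low.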
